A study of Mus musculus with 2 samples.

Results

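The mitochondrial genome of mouse embryonic stem (ES) cells and the nuclear copy of part of it on chromosome 1 were examined in chromatin immunoprecipitation sequencing (ChIP-seq) of LUZP1, a leucine zipper protein. The regions were all consecutive 50 bp windows of the mitochondrial genome (326 windows) and of chromosome 1 from 24615001 to 24627000 in mm9 (240 windows), together 566 of 53098242 windows of that size in the assembly. The rule that set them used no measured value, but it was chosen with earlier results of these data known. Both groups were E14 cells, ES cells from the strain 129P2/OlaHsd, grown without feeders and taken at passages 25 to 30. One group was a precipitation with LUZP1 rabbit serum (n = 1 library, 4214959 reads), and the other was a mock precipitation (n = 1 library, 2734938 reads). For the mock, the labels of the sample say no antibody, and the design text says GST. GCN5, a further target of that text, was not analysed here. The cell type could not be checked against marker genes, since these reads are of precipitated DNA. No test was possible with 1 library per group, and every interval below is a 95% interval that covers counting error only.

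Mitochondrial DNA is a small circular genome present in many copies per cell and packaged without histones. It encodes 2 ribosomal RNAs (rRNAs), 22 transfer RNAs (tRNAs) and 13 proteins of the respiratory chain and ATP synthase. Its control region holds the promoters and a replication origin. Pieces of mitochondrial DNA have been inserted into nuclear chromosomes over evolution, and short reads from such a piece can be placed only where its sequence differs from the mitochondrial original.

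The chromosome 1 copy lay at chr1:24618374-24623027, in reverse orientation, and matched mitochondrial positions 6390 to 11042, from mt-Co1 to mt-Nd4. This stretch is 28.5% of the mitochondrial genome. Over 4654 aligned bases the identity was 99.936%, with 2 mismatches, A6393T at the outer edge and T9461C, and 1 additional A in the copy within a run of A. In these names the mitochondrial base stands first, then its mitochondrial position, then the base of the copy read on the same strand. The sequences around the inner differences are shown because every read that could be assigned inside the copy depended on them. Capitals mark the differing base, and the coordinates are mm9, with the mitochondrial plus strand at chrM:9431-9491 and the chromosome 1 minus strand at chr1:24619926-24619986.

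mitochondrial genome at 9461: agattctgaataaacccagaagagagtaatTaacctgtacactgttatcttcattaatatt

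chromosome 1 copy at the same place: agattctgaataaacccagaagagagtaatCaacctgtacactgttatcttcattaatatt

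Position 9461 is the third base of mt-Nd3, a subunit of complex I. At the other inner difference, in mt-Tr, the arginine tRNA, the mitochondrial run has 8 A and that of the copy has 9 (capitals). The stretches are chrM:9795-9855 on the plus strand and chr1:24619561-24619622 on the minus strand.

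mitochondrial genome at the run of A: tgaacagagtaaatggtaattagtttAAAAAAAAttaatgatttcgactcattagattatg

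chromosome 1 copy at the run of A: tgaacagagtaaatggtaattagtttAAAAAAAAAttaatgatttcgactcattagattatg

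The next sequences are neighbouring 50 bp windows of the control region on the plus strand, chrM:16051-16100 and chrM:16101-16150. The former held the most LUZP1 reads of any mitochondrial window and the latter the most mock reads. Capitals mark runs of 3 or more C.

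window with most LUZP1 reads: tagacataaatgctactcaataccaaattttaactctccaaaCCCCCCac

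window with most mock reads: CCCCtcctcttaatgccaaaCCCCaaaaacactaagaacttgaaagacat

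Mitochondrial reads were scarcer in the LUZP1 library than in the mock after scaling to all reads. The LUZP1 library had 1829 mitochondrial reads, or 0.0434% of its total (exact interval 0.0414 to 0.0454%). The mock library had 4756, or 0.174% (0.169 to 0.179%). The scaled LUZP1 to mock ratio was 0.250 (0.236 to 0.263), whereas the 21 nuclear chromosomes had ratios between 0.800 and 1.06. Both libraries still held far more reads per kb on the mitochondrial than on the nuclear chromosomes, 70.7 times as many for LUZP1 and 284 times as many for the mock. None of the 47 regions in the authors' LUZP1 peak list lay on the mitochondrial genome or in the chromosome 1 region.

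Which parts of the genome could be read at all was set by whether their sequence recurs in the assembly. This was not confined to the nuclear copies described here. Positions 15715 to 16006 of the control region, outside all of them, had unique starts at 9.93% of bases. Of the 16264 places where a 36-base read can start, 9901 (60.9%) had a sequence found once in the assembly, and the deposited reads lay at such unique starts, apart from 1 mock read that ran past the chromosome end. There were 92 windows with no unique start. Neither library had 2 reads at the same start. The mock therefore had a read at 48.0% of unique mitochondrial starts, against 18.5% for LUZP1.

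**Figure D1:**
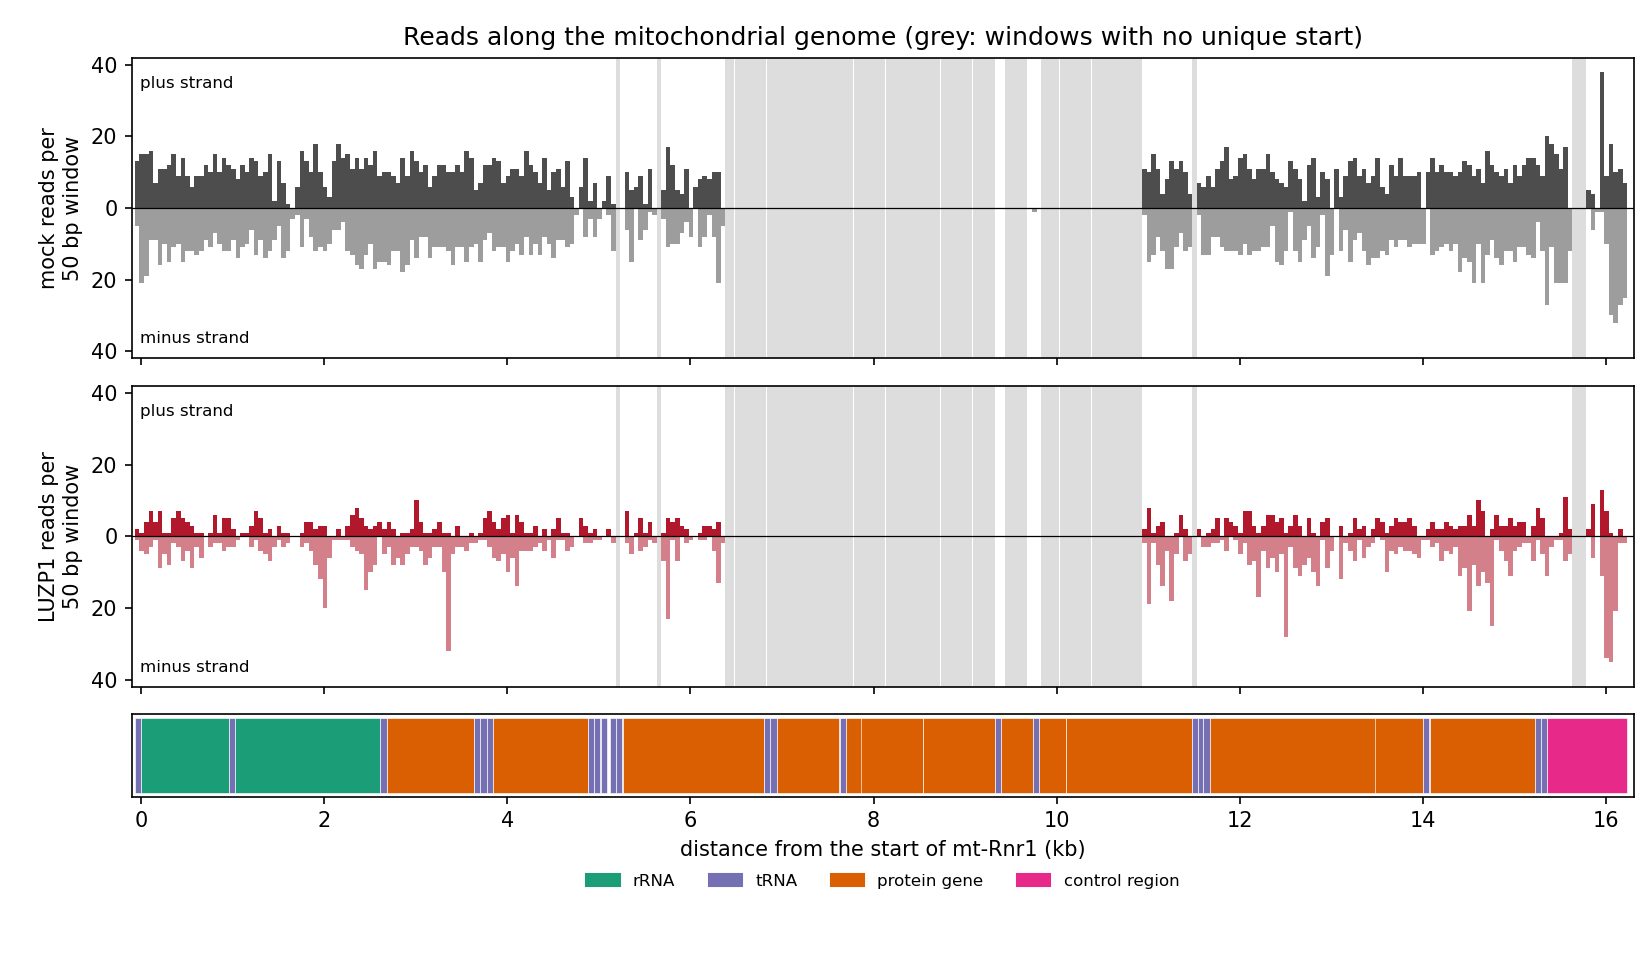
Reads per 50 bp window along the mitochondrial genome in the mock library (top) and the LUZP1 library (middle), unscaled, with plus-strand reads upward and minus-strand reads downward, against distance from the start of mt-Rnr1 in kb; the lower bar shows the gene classes. Grey windows have no unique start. LUZP1 minus-strand bars reach 35 reads, and the tallest mock bar, 38 plus-strand reads, stands in the control region. In windows with all starts unique, variance over mean of minus-strand reads was 6.43 in LUZP1 and 1.51 in the mock.

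Among windows with enough reads to be called, 197 of 224 (87.9%) had an interval below 1, against 130 of 4329 (3.0%) nuclear windows that met the same minimum of 4 reads. None of the 218 windows with enough reads for a call above 1 was above it, against 3.95% of nuclear windows. The nuclear windows were held to the same minimums (4 reads for a call below 1 and 8 for a call above 1) and not matched to the number of reads in mitochondrial windows, so these shares are not at equal depth. In the 136 windows in which all starts were unique, mock reads ran from 14 through a median of 23 to 48, and LUZP1 reads from 0 through 8 to 41. The LUZP1 counts were the more uneven: variance over mean was 5.24, against 1.30 in the mock, where the limit of 1 read per start narrows the spread. Windows rich in mock reads were only loosely the ones rich in LUZP1 reads (Spearman rho 0.150 over these 136 windows). Within each window the libraries share the same unique starts and base composition.

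The rRNA genes, which encode the RNAs of the small (mt-Rnr1) and large (mt-Rnr2) mitochondrial ribosomal subunits, held 359 reads in LUZP1 and 1115 in the mock (ratio 0.209, 0.185 to 0.236). The small subunit gene mt-Rnr1, at positions 70 to 1024, had 146 reads in LUZP1 and 449 in the mock (ratio 0.211, 0.174 to 0.255). The large subunit gene mt-Rnr2, at 1094 to 2675, had 213 and 666, a ratio of 0.208 (0.177 to 0.242). The intervals of the 2 genes overlapped over most of their length. Relative to the rest of the mitochondrial genome, the rRNA ratio was 0.797 times as high (0.696 to 0.913).

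The tRNA genes, which punctuate the longer genes and whose excision releases the RNAs between them, had the lowest ratio of the classes. They held 87 reads in LUZP1 and 345 in the mock (ratio 0.164, 0.128 to 0.208), or 0.639 times that of the rest (0.496 to 0.816). Single tRNA genes had 0 to 14 LUZP1 reads and 0 to 35 mock reads. The 3 with most reads were mt-Tp (proline), mt-Tv (valine) and mt-Tm (methionine). For mt-Tp the counts were 12 LUZP1 and 35 mock, a ratio of 0.222 (0.105 to 0.439). For mt-Tv they were 10 and 34, a ratio of 0.191 (0.0841 to 0.395). For mt-Tm they were 14 and 29, a ratio of 0.313 (0.153 to 0.612). These intervals overlapped, so the 3 genes could not be ordered.

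The protein genes held 1199 reads in LUZP1 and 2877 in the mock (ratio 0.270, 0.253 to 0.289), 1.24 times that of the rest (1.11 to 1.39). Complex I, the NADH dehydrogenase, takes 7 of its subunits from this genome, and its genes together had a ratio of 0.260. Among them mt-Nd1 had 159 reads in LUZP1 and 449 in the mock (ratio 0.230, 0.191 to 0.276). Its neighbour mt-Nd2 had 137 and 401, a ratio of 0.222 (0.181 to 0.270). The downstream mt-Nd4 had 111 and 235, a ratio of 0.306 (0.242 to 0.386). The longest gene, mt-Nd5, had 330 and 743, a ratio of 0.288 (0.252 to 0.329). The only protein gene encoded on the minus strand, mt-Nd6, had 77 and 209, a ratio of 0.239 (0.182 to 0.312).

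Complex III contributes mt-Cytb, the cytochrome b gene, with 256 reads in LUZP1 and 553 in the mock (ratio 0.300, 0.258 to 0.349). Of complex IV, cytochrome c oxidase, mt-Co1 had 130 and 294, a ratio of 0.287 (0.232 to 0.354). All readable protein genes were thus below the nuclear chromosomes, and mt-Nd1 and mt-Nd2 lay lowest, with intervals that overlapped those of mt-Nd4 and mt-Co1. The other genes fell in the stretch shared with chromosome 1. No unique start existed in mt-Co2, mt-Co3, mt-Atp8, mt-Atp6 or mt-Nd4l, and mt-Nd3 had 26. All 6 had 0 reads in both libraries, so for the 5 without a unique start, including complex V (ATP synthase), these libraries give no measurement. The unique starts of mt-Nd3 lie over the inner differences, where mock reads were placed in the chromosome 1 copy, as described below. Its 0 reads therefore need not mean that mt-Nd3 DNA was absent.

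The control region, at 15423 to 16299, was the densest part in both libraries. It had 184 reads in LUZP1 and 412 in the mock (ratio 0.290, 0.242 to 0.346), 1.18 times that of the rest (0.977 to 1.42). Corrected for starts already taken, its ratio was 0.187, below the 0.202 of the whole genome and the 0.223 of protein genes so corrected, which turns its place among them. Per 100 unique starts it held 34.3 LUZP1 reads, against 15.1 in rRNA, 11.1 in tRNA and 19.4 in protein genes. The mock had 76.8 there, against 46.8, 44.1 and 46.6. Cut into 3 nearly equal parts after its values were seen, the region was uneven. The part next to mt-Tp had 39 reads in LUZP1 and 178 in the mock (ratio 0.142, 0.0978 to 0.202). The part next to mt-Tf, the phenylalanine tRNA gene, had 128 and 216, a ratio of 0.385 (0.307 to 0.481), and these intervals did not overlap. The middle part had 29 unique starts, 17 reads in LUZP1 and 18 in the mock (ratio 0.613, 0.297 to 1.26).

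**Figure D2:**
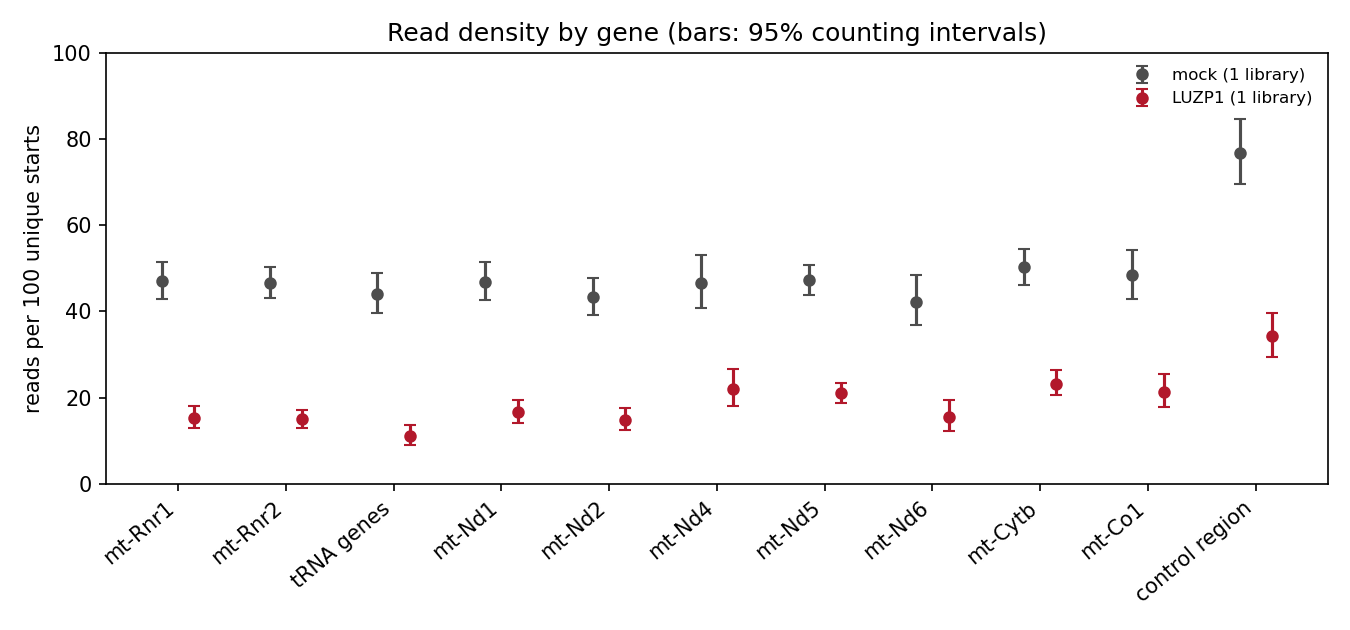
Reads per 100 unique starts for each readable rRNA and protein gene, all tRNA genes and the control region, in the mock (grey) and LUZP1 (red) libraries, 1 library each, with exact Poisson 95% intervals. Mock densities of the genes lie between 42.3 and 50.2 and that of the control region at 76.8, while LUZP1 densities run from 11.1 in tRNA genes to 34.3 in the control region.

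The 5 windows with most LUZP1 reads lay in the control region, mt-Nd1, mt-Nd5 and mt-Co1, and nearly all of their LUZP1 reads were on the minus strand. Window 16051-16100, shown above, had 7 plus and 34 minus LUZP1 reads and 9 plus and 10 minus mock reads (ratio 1.40, 0.794 to 2.55). Its neighbour 16101-16150 had 1 plus and 35 minus LUZP1 reads against 18 plus and 30 minus mock reads (ratio 0.487, 0.307 to 0.766). In mt-Nd1, window 3401-3450 had 1 plus and 32 minus LUZP1 reads against 10 and 12 in the mock. The windows were picked by their LUZP1 reads, so these counts are a description. In mt-Nd5, window 12551-12600, with 37.5 unique starts, had 1 plus and 28 minus LUZP1 reads against 6 and 12. In mt-Co1, window 5801-5850 had 5 plus and 23 minus against 17 and 11. The ratios of these last 3 windows were 0.973, 1.05 and 0.649, each with an interval that held 1.

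The 5 windows with most mock reads all touched the control region. After 16101-16150 came 15401-15450, at the border with mt-Tp, with 47 mock reads and 11 LUZP1 reads, the latter all on the minus strand. Window 16151-16200 had 42 mock reads, 10 plus and 32 minus, and 21 LUZP1 reads, all minus. Window 16001-16050 had 39 mock reads, 38 plus and 1 minus, and 24 LUZP1 reads, 13 plus and 11 minus. It had 28.5 unique starts, and the window before it, into which many of its minus reads would extend, had 1. Minus reads thus had fewer places than plus reads there, so these strand counts are not at equal opportunity. Window 15601-15650 had 38 mock and 18 LUZP1 reads.

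Strand separated the libraries on the mitochondrial genome, while whole nuclear chromosomes had nearly equal strands in both. Whole chromosomes average over stretches of opposite base skew, and nuclear windows of 1 skew are given below. Of LUZP1 mitochondrial reads 34.3% were on the plus strand (32.1 to 36.5%), and of mock reads 47.6% (46.2 to 49.1%). Single nuclear chromosomes had 49.9 to 51.1% plus reads in LUZP1 and 49.7 to 50.2% in the mock. The minus to plus ratio was 1.74 times as high in LUZP1 as in the mock (1.56 to 1.96). An alternative added after the data were seen joined opposite-strand pairs and kept only unjoined reads. The plus share was then 11.6% in LUZP1 and 7.89% in the mock, the opposite order. Each join removes 1 plus and 1 minus read, which enlarges any excess. Joining spanned 57 to 111 bp in LUZP1 and 36 to 190 bp in the mock. At the background rate a LUZP1 plus read had 5.73 minus reads in its range and a mock plus read 33.1. Unrelated reads could thus be joined more readily in the mock, so these unjoined shares are not comparable. In the 13 blocks of 1000 bp with 20 or more reads in each library, minus reads outnumbered plus reads in 13 blocks for LUZP1 and in 12 for the mock. The plus share of these blocks ran from 18.0 to 45.2% in LUZP1 and from 42.7 to 51.4% in the mock.

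By class, the minus excess of LUZP1 over mock was 1.51 (1.18 to 1.94) in rRNA genes, 1.88 (1.63 to 2.17) in protein genes and 2.13 (1.43 to 3.20) in the control region. It was 0.780 (0.473 to 1.28) in tRNA genes. Among genes it was 2.87 (1.88 to 4.45) in mt-Nd1 and 2.74 (1.62 to 4.72) in mt-Nd4. It was 1.17 (0.794 to 1.74) in mt-Rnr1 and 1.05 (0.603 to 1.85) in mt-Nd6. The genes encoded on the minus strand, mt-Nd6 and 8 tRNA genes, together had 0.935 (0.585 to 1.5). In the part of the control region next to mt-Tf it reached 3.32 (1.92 to 5.89), with 18.0% plus reads in LUZP1 and 42.1% in the mock.

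**Figure D3:**
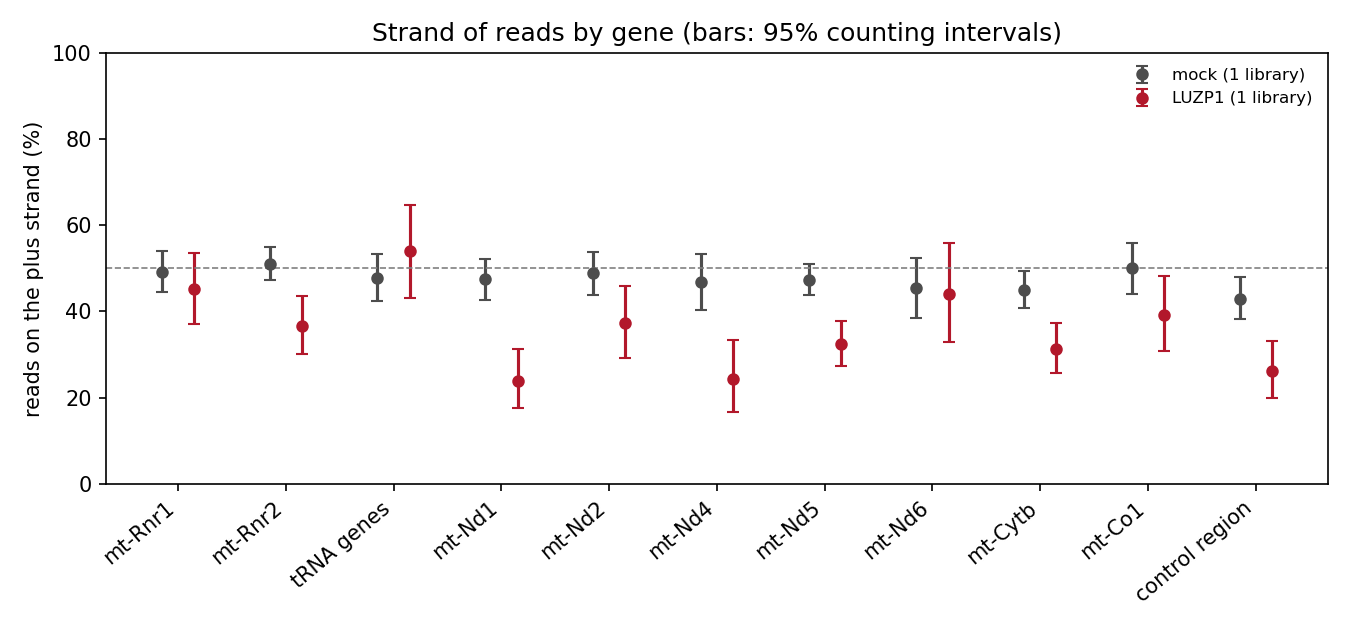
Share of reads on the plus strand in percent for the same genes and classes, in the mock (grey) and LUZP1 (red) libraries, 1 library each, with exact binomial 95% intervals and a dashed line at equal strands. LUZP1 lies lowest in mt-Nd1 (23.9%) and mt-Nd4 (24.3%) and near the mock in mt-Rnr1, mt-Nd6 and tRNA genes.

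Without the 13 windows that had 20 or more LUZP1 reads, the LUZP1 plus share was 38.4%. The plus strand of the mitochondrial genome has more C than G, with a G minus C skew of -0.328 relative to their sum. In nuclear windows of like GC content and a skew of -0.4 to -0.3, the plus share was 48.8% in LUZP1 (48.1 to 49.5%). In the mock it was 50.5% (49.7 to 51.3%), so the libraries differed there too, but by less. When mitochondrial starts were grouped by C minus G over their 36 bases, the LUZP1 plus share was 35.0% below 0, 29.7% at 0 to 3, 32.9% at 4 to 7, 42.7% at 8 to 11 and 30.8% at 12 or more. The mock shares in the same order were 47.3%, 48.9%, 46.3%, 48.5% and 47.0%. Autosomal reads of 8 to 18 G or C bases, grouped alike, had LUZP1 plus shares of 50.9%, 49.6%, 48.9%, 48.2% and 48.1%, falling from each group to the next, and mock shares of 49.7%, 50.2%, 50.5%, 50.6% and 49.96%. The part of base composition in the mitochondrial strand difference was not tested. These groupings were chosen after values had been seen.

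The distance from a plus-strand 5′ end to a minus-strand 5′ end downstream reflects the length of fragments of which both ends were read. On nuclear chromosomes the most frequent distance was 84 bp in LUZP1, at 13.8 times the level of pairs over 300 and up to 600 bp apart, and 161 bp in the mock, at 24.6 times. On the mitochondrial genome LUZP1 had its highest level at 88 bp, at 1.57 times background. The mock had no comparable peak, with a highest level of 1.26 times background at 42 bp. Mitochondrial reads were so dense that unrelated pairs were common: within the distances of the nuclear peak, a mock plus read had 33.1 minus reads at the background rate, and a LUZP1 plus read 5.73. Pairs were also divided by the pairs of unique starts available at each distance, a step added after the values were seen. LUZP1 was then again highest at 88 bp (1.45 times). The highest mock level was 1.11 times at 144 bp, but it was also 1.11 times at 81 bp and at 157 bp. The mock curve was thus nearly flat, and 144 bp marks no distinct peak.

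**Figure D4:**
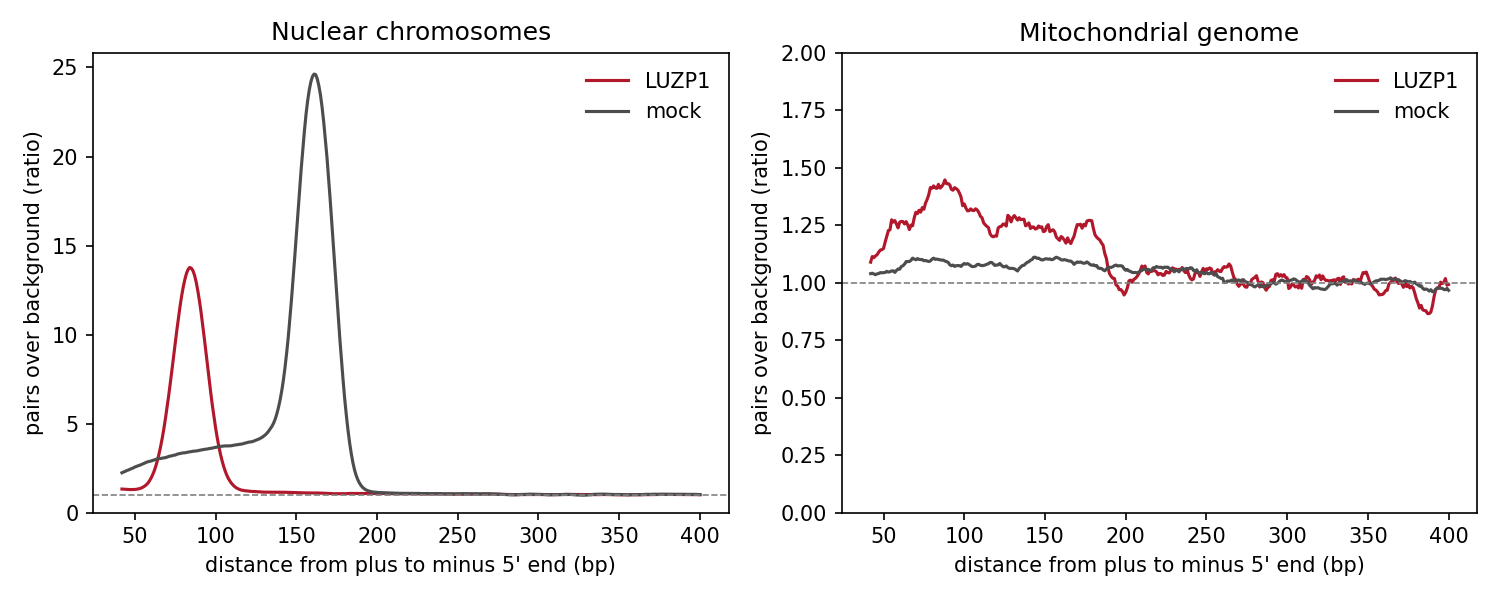
Pairs of a plus-strand and a downstream minus-strand 5′ end by distance in bp, as a ratio to pairs over 300 and up to 600 bp apart, on nuclear chromosomes (left) and on the mitochondrial genome after dividing by available pairs of unique starts (right; the vertical scales differ), for LUZP1 (red) and mock (grey). Nuclear peaks stand at 84 bp and 161 bp, and the mitochondrial curves stay below 1.5.

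The chromosome 1 region had 11 reads in LUZP1 and 33 in the mock (ratio 0.216, 0.0986 to 0.439). With starts unique at up to 1 mismatch alone it had 10 reads in each library, a ratio of 0.649 that so few reads do not set apart from 1. Of nuclear stretches of this length with 20 or more reads, 4.98% had an interval below 1. The difference lay inside the copy. Its flanks, 7346 bp in all, had 11 reads in LUZP1 and 8 in the mock (ratio 0.892, 0.327 to 2.56). The copy had 0 LUZP1 and 25 mock reads. Set against 3 reads, the limit that a count of 0 allows, the mock was 12.8-fold higher. This leaves out counting error in the mock. With the 25 reads taken as independent, the upper end of the interval of the ratio was 0.103, or a 9.69-fold higher mock. Joining opposite-strand pairs left 19 mock counts in the copy, so some of these reads may be ends of the same fragment. No interval was computed for the joined counts, so 9.69-fold is not a firm minimum.

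All 25 mock reads in the copy lay at starts whose 36 bases cover an inner difference from the mitochondrial sequence. Over the single-base difference T9461C, 19 reads filled 36 possible starts at 24619921 to 24619956, or 52.8 per 100. Over the run of A, 6 reads filled 28 starts at 24619561 to 24619588, or 21.4 per 100. Reads were on both strands, 12 plus and 13 minus. At the outer edge, A6393T, the 4 unique starts of the copy had 0 reads in both libraries, and the 4 mitochondrial starts at 6390 to 6393 had 2 mock reads and 1 LUZP1 read. The mock density over these 64 inner starts was 304 times that of the flanks (39.1 against 0.129 per 100 unique starts), and its mean over the mitochondrial genome was 48.0 per 100. At that mitochondrial mean 64 starts would hold 30.7 mock reads, and at the flank density 0.0822.

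The matching mitochondrial starts were almost empty in the mock. At 9426 to 9461, where the 36 reference bases include the mitochondrial base T, there were 0 mock reads at 36 starts, and at 9794 to 9820 there was 1 at 27. Of 255 runs of 36 unique mitochondrial starts, the run at 9426 was the only one without a mock read, and the median run had 17. In the mock, reads over the inner differences were placed on the copy in 25 of 26 cases, whereas the 2 mock reads over the outer edge were placed on the mitochondrial genome. The bases of the reads were not examined, and the placement is that of the authors' alignment, which allowed 1 mismatch. The reference mitochondrial sequence need not be that of the 129P2/OlaHsd strain, and whether the cells' mitochondrial DNA carries the copy's bases was not tested.

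Over the inner differences LUZP1 had 0 reads on either version, at 127 starts that count the same stretches in both versions. For the 64 starts of the copy alone, this allows up to 4.69 reads per 100 starts, against 18.5 over the mitochondrial genome. At that mean the 64 copy starts would hold 11.8 LUZP1 reads. Of the 255 runs of 36 starts, 5 had no LUZP1 read, the run at 9426 among them. Of the 79 runs with at least 19 mock reads, 2 had no LUZP1 read.

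**Figure D5:**
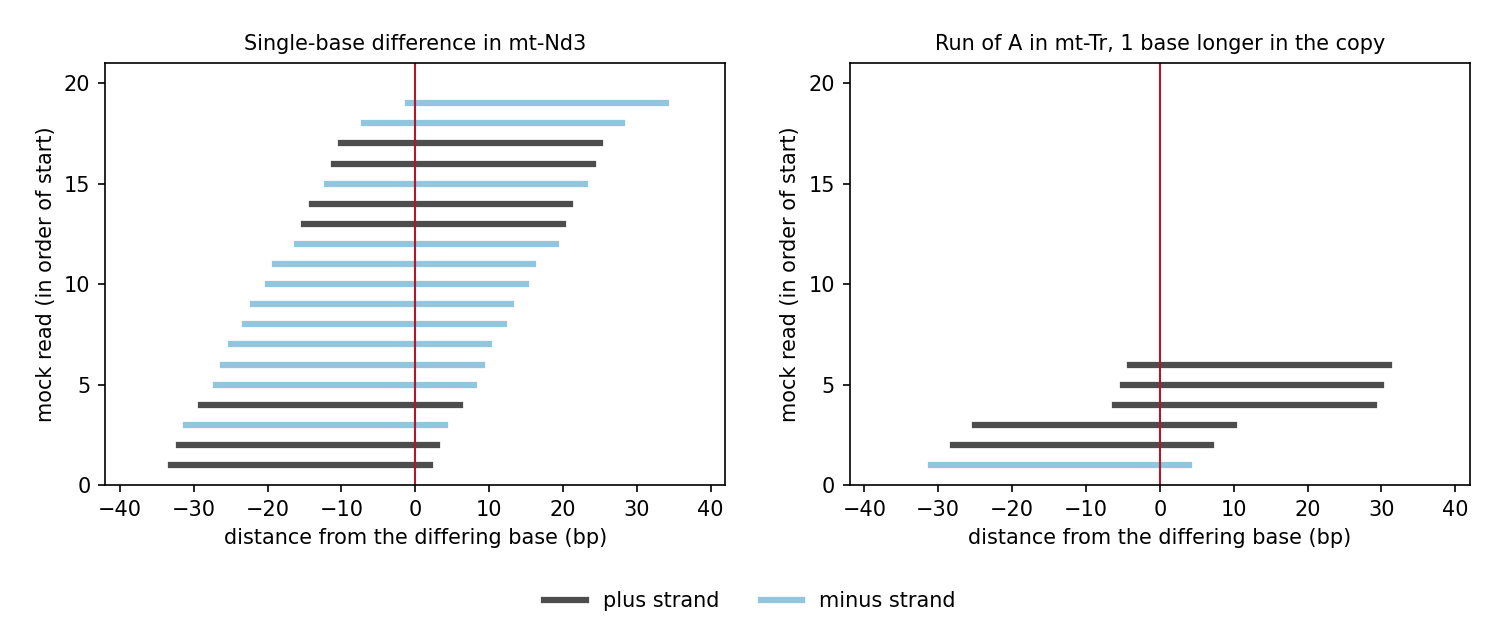
Mock reads inside the chromosome 1 copy, each a horizontal line over its 36 bases, against distance in bp from the base (red line) that differs from the mitochondrial genome, for the single-base difference (left, 19 reads) and the run of A (right, 6 reads); dark lines are plus-strand and light lines minus-strand reads. Every read spans the difference, and the LUZP1 library had 0 reads in the copy.

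The 3 windows with most reads in the chromosome 1 region were those of the copy. Windows 24619951-24620000, 24619901-24619950 and 24619551-24619600 had 12, 7 and 6 mock reads and 0 LUZP1 reads, and all 3 had intervals below 1. The next were flank windows, 24616751-24616800 with 2 LUZP1 reads and 24616351-24616400 with 1, both without a mock read. The annotated genes inside the copy, Gm10222 at 24619243 to 24619539 and Gm10925 at 24620814 to 24621627, are both on the minus strand. Gm10222 matches mitochondrial positions 9877 to 10173, the span of mt-Nd4l, and Gm10925 matches 7790 to 8603, in mt-Atp8 and mt-Atp6. Neither had a unique start or a read in either library, and the nearest mock read lay 22 bp from Gm10222.

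Other nuclear copies, of lower identity, had few reads. The copy on chromosome 2 (97.4% identity) had 2 reads in LUZP1 and 9 in the mock (ratio 0.144, 0.0152 to 0.697). Those on chromosomes 4 (93.0%), 13 (95.2%) and 11 (90.7%) had 3, 2 and 2 LUZP1 reads and 3, 1 and 0 mock reads. Mock density was 0.579 per 100 unique starts in the chromosome 2 copy, far below the 36.8 of the chromosome 1 copy.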

How the data were processed

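Per the series' design text, the authors aligned reads to mm9 with Eland (1 mismatch allowed), on DNA from 300 µg of chromatin sequenced on a Genome Analyzer II, and called peaks with MACS; versions: not given in the sources used here. The authors deposited 1 line per 36-base read, with a count of 1 in every line. The deposited positions were found to count from 0: read so, all mitochondrial reads but 1, which passes the end, match once. At most 1 read per start was deposited, which caps dense stretches. Read 5′ ends were counted on the reference NCBIM37 (mm9) with GENCODE genes (Python 3.11.15, numpy 2.4.6, scipy 1.17.1). Ratios were scaled by total reads (0.649) and carry exact conditional 95% intervals. Ratios of 2 ratios carry conditional odds intervals. Windows were called where the interval excluded 1. A start counted as unique where its 36 bases occur once in the genome on either strand. The copies were found with blastn 2.17.0 (500 bp or more, 90% identity or more). With 1 library per group nothing was tested, and reads that are both ends of 1 fragment make intervals too narrow. Named genes and windows followed a rule: both rRNAs, all protein genes, the control region, the 3 tRNA genes and the 5 windows per kind with most reads, and Gm10222. The regions and rules were chosen with earlier results of these data known. Intervals, pair distances and uniqueness were tested on simulated data. The simulated window counts were independent and had no limit of 1 read per start, and the simulated pairs were sparser than mitochondrial reads. Those features of the mitochondrial reads were therefore not covered.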

Additional observations from a re-analysis of the deposited data

How the results depend on the processing

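No paired analysis was possible because each group has 1 library, and for the same reason no library could be left out. Every ratio that could be formed stayed below 1 as a point value under all alternatives run. Intervals were not computed for the alternatives, so a ratio from few reads need not differ from 1. Joining opposite-strand pairs gave 0.283 for the mitochondrial genome, 0.307 for protein genes and 0.370 for the control region, with 130 windows below 1. Unrelated reads can be joined where reads are dense, and joining left 1289 of 1829 LUZP1 and 2511 of 4756 mock mitochondrial reads. Dividing by nuclear windows of the same GC content gave 0.294 for the genome, 0.278 for rRNA, 0.218 for tRNA and 0.318 for protein genes. Correcting for starts already taken gave 0.202, 0.168 for rRNA, 0.223 for protein genes and 0.187 for the control region. In windows of 100 bp, of which there are fewer, 110 were below 1. With starts unique at up to 1 mismatch the chromosome 1 region had 10 reads in each library, a ratio of 0.649. A mitochondrial window with 14 reads in each library, the same ratio, had an interval of 0.287 to 1.47. At 10 reads each, the region could therefore not be set apart from 1. Under this setting the copy had no LUZP1 and too few mock reads for a ratio. The LUZP1 pair distance was then 81 bp. Division by available pairs, added after the data were seen, moved the highest mock level to 144 bp, on a nearly flat curve. The cause was not tested. Also added then, the plus share of reads left unjoined was 11.6% in LUZP1 and 7.89% in the mock. Each join removes 1 read of either strand and so enlarges any excess. Here the mock had the lower share, opposite to the order over all reads. Background pairs were more common within the joining range of the mock, so these shares are not comparable between the libraries. In the copy, 64 inner starts could be read, which limits its counts.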
